A study of Homo sapiens with 40 samples.

Results

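Expression of 35 genes of glycolysis and of the response to hypoxia-inducible factor 1 (HIF-1) was followed in HepaRG cells exposed to PCB 126, glyphosate or Roundup. The genes were taken by name from the 56568 gene names of the deposited tables. They cover glucose uptake and hexokinases (5 genes), phosphofructokinases and the PFKFB enzymes (7), lower glycolysis (10), lactate and pyruvate handling (6), and the HIF alpha subunits with their targets (7). The question was whether any of them followed SLC2A1 upward or PFKFB3 downward, genes whose behaviour under PCB 126 was known when the list was made.

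HepaRG is a human hepatoma line whose differentiated cultures contain both hepatocyte-like and primitive biliary cells. The cells were exposed from day 8 to day 14 of culture in the same DMSO-containing, serum-poor medium, which the solvent controls also received. Gene expression was measured by RNA sequencing of 40 libraries, 5 in each of 8 groups. The groups were the control, 3 doses of PCB 126 (100 pM, 10 nM, 1 µM), Roundup, a glyphosate-based formulation, at 10 µg/L, and 3 doses of glyphosate itself, the lowest of them also 10 µg/L and the others 1 mg/L and 0.1 g/L. PCB 126 is a coplanar polychlorinated biphenyl that activates the aryl hydrocarbon receptor (AhR), and glyphosate is the active herbicide of Roundup. The same 5 control libraries served both the PCB 126 and the herbicide comparisons, and the labels do not say whether libraries of a group came from separate cultures, so p-values measure the spread between libraries, which may be technical. In a mixed culture read as 1 RNA pool, fewer cells of a type and less RNA per cell cannot be told apart.

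Glycolysis splits glucose into pyruvate, and its rate is set at glucose entry, at the hexokinases and at phosphofructokinase, which the PFKFB enzymes tune by making or breaking down its activator fructose-2,6-bisphosphate. HIF-1, a pair of an oxygen-sensitive alpha subunit and ARNT, binds a short core sequence near many of these genes and raises their transcription when oxygen is scarce. AhR also pairs with ARNT when a dioxin-like ligand is bound, and then binds a related core sequence.

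Levels are given as FPKM, fragments scaled to transcript length and to the size of the library, summed over the transcripts of a gene. Total fragments per library are not known from these values. By the study's alignment summary, 9 of the 40 libraries had over 30% of their read pairs aligned to several places. They were control replicate 5, PCB 126 10 nM replicates 3 and 5, PCB 126 1 µM replicates 1 and 5, glyphosate 0.1 g/L replicate 2, glyphosate 10 µg/L replicate 5, and Roundup replicates 4 and 5. In these 9 libraries the 35 genes summed to 879 to 1377 FPKM, below the 1522 to 2497 FPKM of the other 31 libraries. The same 9 stood apart on the first principal component of all genes, which held 41.4% of the variance. The log2 fold changes at 1 µM of the genes described library by library are given with and without them.

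Differences were tested with limma on log2(FPKM + 1), and a gene was called where its p-value, adjusted over all genes tested, was under 0.05. Unless another setting is named, limma stands for this main test. Fold changes are on that log2 scale, which understates the change of low genes. Of the 35 genes, 24 varied enough to be tested in the PCB 126 libraries. The other 11 were low, and none of the 24 passed through 1 group alone.

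PCB 126 at 1 µM changed 3 of the 24 tested genes. SLC2A1, the glucose transporter GLUT1, rose, while PFKFB3, the PFKFB isoform with the strongest kinase activity, and CA9, a cell-surface carbonic anhydrase that is a classical HIF-1 target, fell. Of all 9755 genes tested, 1.87% were called at this dose, 0.646% higher and 1.22% lower. In the comparison across the PCB 126 groups the same 3 genes were called, where 1.39% of all genes were. SLC2A1 and PFKFB3 had set the question and their changes were known beforehand, so their calls are no test of the list. CA9 was the only other gene called in either comparison. The whole list was chosen with earlier results of these data known, so the call of CA9 is no test of it either.

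The sequences upstream of the genes that these results turn on are shown to place the HIF core ACGTG and the dioxin-response core GCGTG, both searched on both strands. Each run holds the 250 bases before a start site, 5′ to 3′ on the gene's strand, with matches to either core in capitals (on the opposite strand they read CACGT and CACGC). The SLC2A1, CA9 and HK2 runs are from RefSeq (GRCh38.p14), at chr1:42958869-42959118 (minus strand), chr9:35673678-35673927 (plus strand) and chr2:74833877-74834126 (plus strand). The PFKFB3 run is chr10:6202616-6202865 (hg38, plus strand), just before an exon start of the GENCODE annotation that lies 65 bases upstream of its most abundant transcript in the files. It was chosen after the transcripts were seen, because the RefSeq start lies 58010 bases upstream of that transcript, near the start of ENST00000379789, which held 4.77% of the gene's FPKM.
SLC2A1: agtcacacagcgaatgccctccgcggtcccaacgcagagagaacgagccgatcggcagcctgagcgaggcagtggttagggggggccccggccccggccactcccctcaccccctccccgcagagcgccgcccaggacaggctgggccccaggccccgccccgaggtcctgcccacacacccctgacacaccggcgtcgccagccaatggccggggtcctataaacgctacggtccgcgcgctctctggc
PFKFB3: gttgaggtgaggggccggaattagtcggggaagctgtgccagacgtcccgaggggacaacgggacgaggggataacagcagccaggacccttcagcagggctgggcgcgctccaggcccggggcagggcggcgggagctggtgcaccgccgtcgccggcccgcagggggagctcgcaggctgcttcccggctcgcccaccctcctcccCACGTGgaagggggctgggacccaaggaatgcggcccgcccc
CA9: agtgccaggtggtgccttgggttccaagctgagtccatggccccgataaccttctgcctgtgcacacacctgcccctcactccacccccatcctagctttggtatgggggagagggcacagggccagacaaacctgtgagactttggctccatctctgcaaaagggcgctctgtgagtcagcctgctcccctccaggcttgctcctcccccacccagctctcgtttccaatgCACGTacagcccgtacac
HK2: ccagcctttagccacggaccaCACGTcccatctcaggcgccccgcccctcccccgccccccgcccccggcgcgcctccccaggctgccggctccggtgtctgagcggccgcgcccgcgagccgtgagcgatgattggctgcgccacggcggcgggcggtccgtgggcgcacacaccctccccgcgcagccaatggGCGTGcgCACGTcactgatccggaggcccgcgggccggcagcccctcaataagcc
The SLC2A1 run held neither core. Its most abundant transcript in the files began 305 bases upstream of the RefSeq start, and the 250 bases before that start held neither core as well. The PFKFB3 run held a palindromic CACGTG, which counts as 1 HIF core on each strand, the nearer ending 37 bases before the annotated exon. The RefSeq promoter of PFKFB3 held no HIF core and 1 dioxin-response core, 164 bases before its start, so the letters found depend on which start is taken. CA9 held 1 HIF core, 14 bases before its start. HK2, which encodes the inducible hexokinase of many growing cells, held 2 HIF cores, 44 and 225 bases before its start, and 1 dioxin-response core 51 bases before it. Among 35116 RefSeq promoters cut to the same 250 bases, 18.5% held the HIF core and 32.2% the dioxin-response core. Of the 31 genes of the list with a RefSeq promoter, 11 held the HIF core and 11 the dioxin-response core, PFKFB3 being counted there by its RefSeq promoter. A match is a description of the letters in the window and not a binding site.

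SLC2A1 levels in the 5 control libraries were 10.53, 12.01, 13.2, 6.90 and 3.63 FPKM. At PCB 126 1 µM they were 34.1, 45.6, 54.99, 41.3 and 28.9 FPKM, so that every treated library lay above every control. The mean was 40.98 ± 10.1 FPKM (SD, n = 5) against 9.25 ± 3.93 FPKM (SD, n = 5) in the control. The log2 fold change was 2.11 with a standard error of 0.34 and an adjusted p of 0.000618. Without the 9 libraries it was 2.07, with an adjusted p under limma of 0.000284. At 10 nM the libraries held 38.3, 30.1, 8.37, 16.9 and 27.4 FPKM, with replicate 3, one of the 9, inside the control range. At that dose the log2 fold change was 1.25 (SE 0.34), and its adjusted p of 0.209 missed the threshold. Without the 9 libraries it was 1.30 and passed, at an adjusted p of 0.0315. At 100 pM the values were 14.2, 13.9, 11.4, 9.62 and 13.9 FPKM, overlapping the control. The glyphosate and Roundup libraries ranged from 3.43 to 12.7 FPKM, all below the highest control.

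PFKFB3 fell at 1 µM. Its controls held 26.3, 34.1, 27.3, 22.01 and 16.5 FPKM. At 1 µM the libraries held 8.69, 9.28, 9.39, 8.63 and 5.55 FPKM, none of them reaching the lowest control. The log2 fold change was -1.48 (SE 0.28), with an adjusted p of 0.00355, and -1.48 without the 9 libraries, with an adjusted p of 0.00202. At 10 nM the values were 12.01, 13.0, 9.03, 16.6 and 5.70 FPKM. Only replicate 4 reached the control range there, and the log2 fold change of -1.13 (SE 0.28) had an adjusted p of 0.136. It was -0.93 without the 9 libraries, with an adjusted p of 0.122. At 100 pM the values of 18.5, 26.1, 28.0, 29.5 and 13.4 FPKM overlapped the control, and the herbicide libraries ranged from 11.6 to 32.0 FPKM. The most abundant transcript, ENST00000379775, held 82.6% of the gene's FPKM and fell by 2.19 on the log2 scale at 1 µM, with an adjusted p of 0.0377 over 21181 transcripts. The other measured PFKFB genes were low. PFKFB2 averaged 3.45 FPKM in the control and 2.46 FPKM at 1 µM, PFKFB4 0.632 and 0.912 FPKM, and PFKFB1 0.245 and 0.119 FPKM, and none of these was tested.

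CA9 fell at 1 µM as well. The controls held 14.5, 34.5, 27.9, 26.7 and 17.6 FPKM. At 1 µM the libraries held 3.83, 4.33, 4.85, 6.29 and 3.32 FPKM, all below the lowest control. Its log2 fold change was -2.15 (SE 0.39), with an adjusted p of 0.00242, and -2.08 without the 9 libraries, with an adjusted p of 0.00385. At 10 nM the values spread from 1.82 to 21.1 FPKM, namely 7.86, 12.2, 7.81, 21.1 and 1.82, so replicate 4 sat among the controls. The log2 fold change there was -1.40 (SE 0.39), and its adjusted p was 0.221. Without the 9 libraries it was -0.91, with an adjusted p of 0.541. At 100 pM the values were 14.6, 27.5, 31.4, 35.6 and 16.4 FPKM, in the control range or just above it. The herbicide libraries ranged from 13.8 to 36.3 FPKM.

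**Figure D1:**
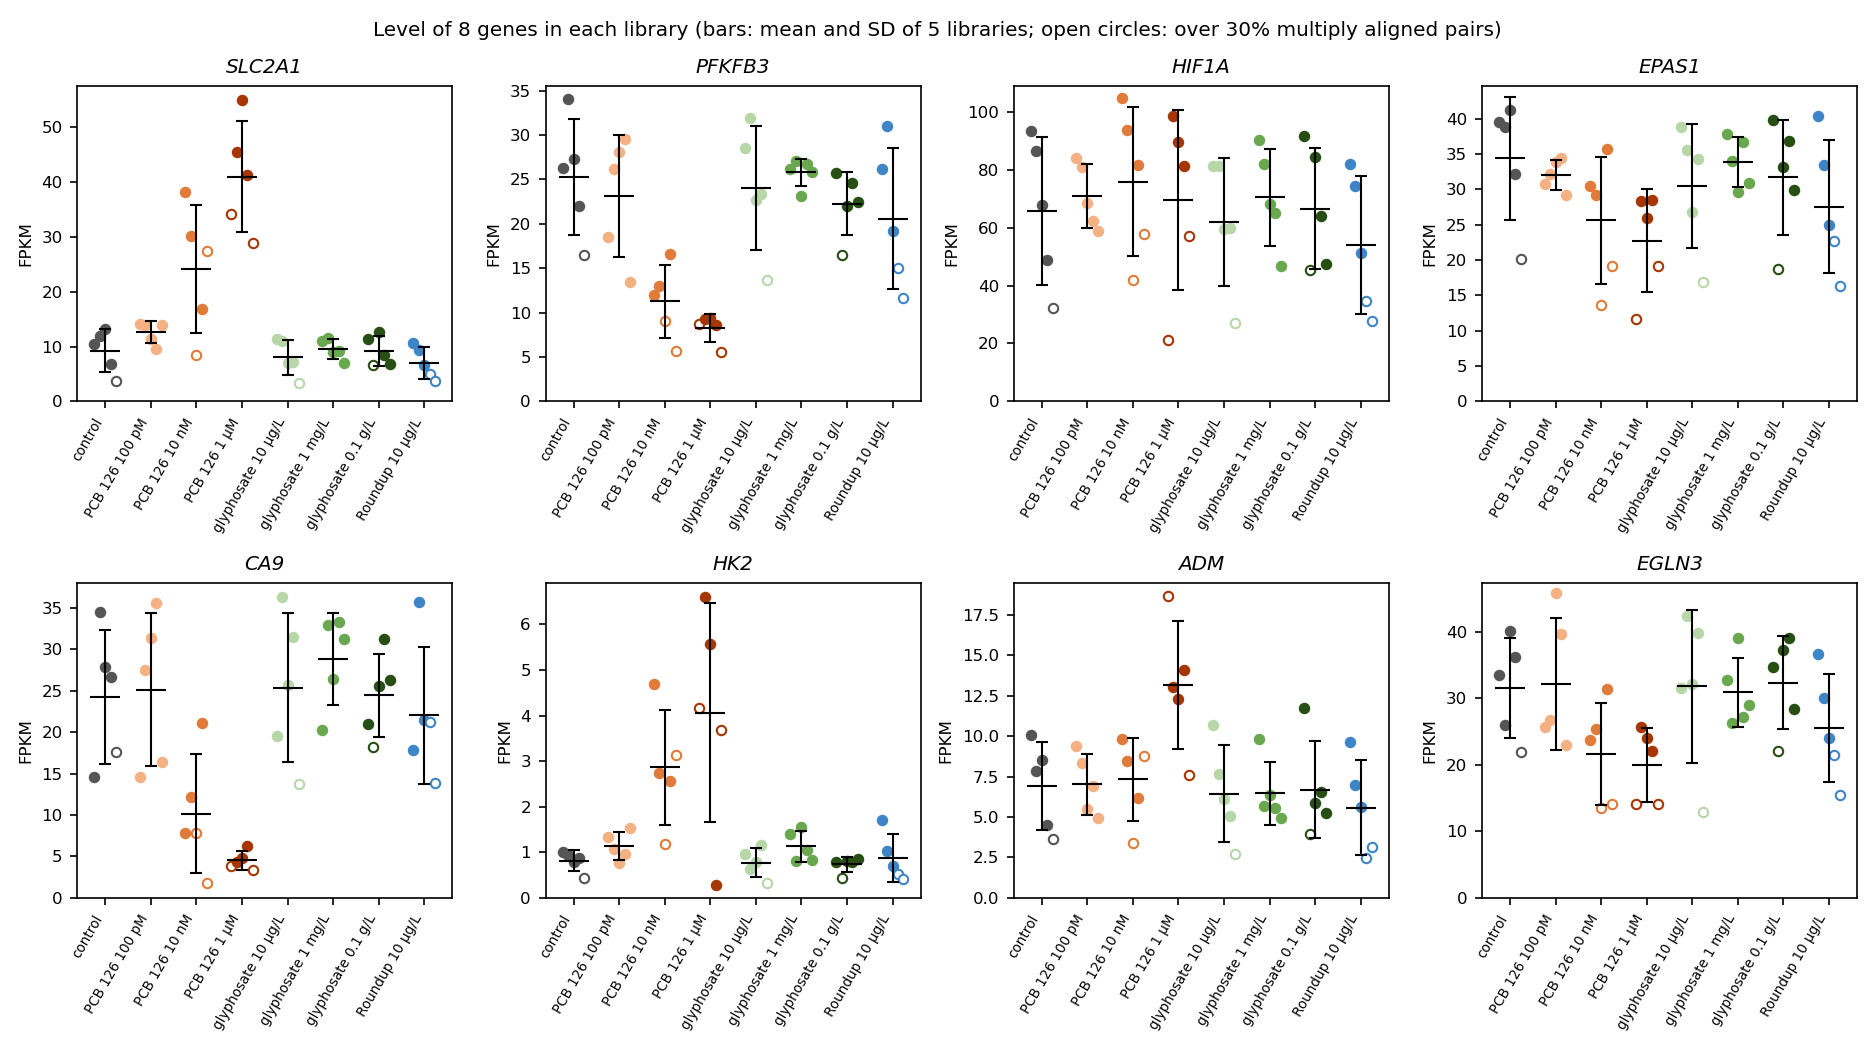
FPKM (vertical axes) of 8 genes in each of the 5 libraries of the 8 groups, with the mean and SD as black bars, and open circles for the 9 libraries with over 30% multiply aligned pairs. SLC2A1 at PCB 126 1 µM (28.9 to 54.99 FPKM) stands above, and PFKFB3 (5.55 to 9.39) and CA9 (3.32 to 6.29) below, every control library.

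HK2 had the highest log2 fold change of the 24 genes next to SLC2A1, and its call depended on how transcripts were added up. The controls held 1.02, 0.948, 0.784, 0.883 and 0.442 FPKM. At 1 µM the libraries held 4.15, 6.60, 5.57, 0.287 and 3.69 FPKM, with 4 above every control and replicate 4 below the lowest control. The log2 fold change was 1.27 (SE 0.35), and its adjusted p of 0.0563 missed the threshold. Without replicate 4 of the 1 µM group the log2 fold change was 1.71, with an adjusted p of 0.000468. Without the 9 libraries it was 1.07, with an adjusted p of 0.200. In that library, an assembled transcript without a gene name inside the HK2 locus (17 exons, chr2:74867033-74893267) held 8.39 FPKM, against 0.673 FPKM or less in every other library. Added over the whole locus, a sum chosen after the data were seen, the 1 µM libraries held 4.15, 6.69, 5.57, 8.68 and 3.69 FPKM against 0.569 to 1.85 FPKM in the controls. Those groups did not overlap, and the log2 fold change was 1.72 with an adjusted p of 2.26e-05. At 10 nM the named HK2 values were 4.69, 2.75, 1.19, 2.56 and 3.13 FPKM. All 5 lay above the controls, HK2 being the 1 gene of the 24 without overlap at that dose, where 0.513% of all genes had none. Its log2 fold change of 1.03 had an adjusted p of 0.501. With the locus sums, the 10 nM libraries held 4.69, 3.42, 1.19, 2.67 and 3.63 FPKM, and replicate 3 lay below the highest control, 1.85 FPKM, so that the groups overlapped. At 100 pM the values of 1.34, 1.08, 0.762, 0.967 and 1.53 FPKM overlapped the control, and the herbicide libraries ranged from 0.328 to 1.71 FPKM. HK1, the other hexokinase of the list, stayed between 0.0347 and 0.655 FPKM over all 40 libraries.

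Neither HIF alpha subunit was called at 1 µM by limma, where EPAS1 had an unadjusted p under 0.05 and was called by the ordinary linear model. HIF1A levels were 93.6, 86.6, 67.7, 48.8 and 32.1 FPKM in the control and 21.1, 98.8, 89.7, 81.5 and 57.3 FPKM at 1 µM. Replicate 1, one of the 9 libraries, was the lowest of all 40, and the other 4 lay within the control range or just above it. The log2 fold change was 0.01 (SE 0.36), with an adjusted p of 0.996, and without that replicate it was 0.38, with an adjusted p of 0.926. It was 0.31 without the 9 libraries, with an adjusted p of 0.456. EPAS1, which encodes HIF-2 alpha, held 39.5, 38.8, 41.2, 32.2 and 20.2 FPKM in the control and 11.6, 28.4, 25.9, 28.5 and 19.1 FPKM at 1 µM. The groups overlapped only through control replicate 5, one of the 9 libraries, and the log2 fold change of -0.60 (SE 0.28) had an adjusted p of 0.348. The EPAS1 value without the 9 libraries was -0.44 and passed, with an adjusted p of 0.0457. HIF-1 is regulated largely through the stability of the alpha protein, which these mRNA levels do not measure. At 10 nM, HIF1A held 105, 93.8, 41.9, 81.7 and 57.7 FPKM and EPAS1 30.5, 29.2, 13.6, 35.7 and 19.2 FPKM, both overlapping the control. At 100 pM, HIF1A held 84.2, 80.9, 68.6, 62.5 and 58.9 FPKM and EPAS1 30.7, 32.1, 33.8, 34.4 and 29.2 FPKM, within the control range. The herbicide libraries ranged from 27.2 to 91.7 FPKM for HIF1A and from 16.4 to 40.3 FPKM for EPAS1.

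The other HIF-1 targets of the list had log2 fold changes of either sign at 1 µM, and limma called 0 of them, although ADM and EGLN3 had an unadjusted p under 0.05 and the ordinary linear model called ADM and VEGFA. ADM, which encodes the vasodilator peptide adrenomedullin, held 10.1, 7.83, 8.49, 4.48 and 3.67 FPKM in the control and 18.7, 13.0, 12.3, 14.1 and 7.60 FPKM at 1 µM. Of these, 4 of 5 lay above every control, and only replicate 5 fell inside the control range. Its log2 fold change was 0.87 (SE 0.30), with an adjusted p of 0.159, and 0.74 without the 9 libraries, with an adjusted p of 0.0983. EGLN3, a prolyl hydroxylase that marks HIF alpha subunits for destruction and is itself induced by HIF, held 33.5, 25.99, 40.1, 36.2 and 21.9 FPKM in the control. At 1 µM it held 14.1, 25.7, 23.97, 22.1 and 14.1 FPKM, which overlapped the control. Its log2 fold change was -0.64 (SE 0.28), with an adjusted p of 0.302, and -0.47 without the 9 libraries, with an adjusted p of 0.272. At 10 nM, ADM held 9.81, 8.45, 3.37, 6.18 and 8.79 FPKM and EGLN3 23.8, 25.4, 13.5, 31.3 and 14.03 FPKM, and at 100 pM they held 9.42, 8.35, 5.50, 6.89 and 4.91 FPKM and 25.7, 26.7, 45.7, 39.7 and 22.99 FPKM. Both genes overlapped the control at these doses, and in the herbicide libraries they ranged from 2.47 to 11.7 FPKM and from 12.95 to 42.4 FPKM. VEGFA, the vascular growth factor, averaged 12.9 ± 4.10 FPKM in the control and 17.3 ± 6.57 FPKM at 1 µM (SD, n = 5 each), with a log2 fold change of 0.38. The VEGFA value without the 9 libraries was 0.56, with an adjusted p of 0.0187. BNIP3, a mitophagy receptor, averaged 15.8 FPKM in the control and 13.0 FPKM at 1 µM, with a log2 fold change of -0.25 and an adjusted p of 0.658.

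The enzymes of lower glycolysis were abundant, and limma called 0 of the 8 tested at each PCB 126 dose, with 0 at an unadjusted p under 0.05. An ordinary linear model called PKM at 1 µM. Its covariate was the sum of a library's nonzero log2(FPKM + 1) values below their 75th percentile. ENO1, the enolase of most tissues, averaged 420 ± 112 FPKM in the control and 335 ± 83.6 FPKM at 1 µM (SD, n = 5 each), a log2 fold change of -0.32. The log2 fold changes were -0.28 for the aldolase ALDOA, -0.27 for the phosphoglycerate kinase PGK1, -0.25 for GAPDH, -0.20 for the mutase PGAM1 and -0.11 for the isomerase TPI1. ALDOC, a second aldolase, was at -0.03, and PKM, the pyruvate kinase of non-liver and growing cells, at 0.30. These values sit on either side of the median of all 9755 tested genes, which was -0.26, while the median of the 8 enzymes was -0.23. Scaling the libraries to a common 75th percentile moved the median of all genes to -0.12, and quantile normalization moved it to -0.04. After quantile normalization ALDOA, ALDOC, ENO1, GAPDH and TPI1 changed sign, to values between 0.0045 and 0.20, and PKM was called, at 0.60 with an adjusted p of 0.000584. Of the calls over all genes, 34.6% were higher at 1 µM, against 45.3% after quantile normalization. PKLR, the liver and red-cell pyruvate kinase, averaged 0.845 FPKM in the control, and ENO2, the neuronal enolase, 0.172 FPKM. Reads of GAPDH, ENO1, PGK1, PKM, LDHA and TPI1 can be shared with processed pseudogenes, so their levels are less certain than those of the transporters.

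Glucose phosphate isomerase (GPI) averaged 74.7 ± 20.7 FPKM in the control and 55.5 ± 17.5 FPKM at 1 µM (SD, n = 5 each), with a log2 fold change of -0.43. Of the phosphofructokinase subunits, PFKL, the liver form, was at 23.4 FPKM in the control and 22.4 FPKM at 1 µM, and PFKM, the muscle form, at 3.88 and 2.50 FPKM. PFKP, the platelet form, averaged 1.72 FPKM in the control and was not tested. In 27 of the 40 libraries over 50% of the PFKP locus was assigned to assembled transcripts without a gene name, so its named level is a poor measure of the gene. SLC2A3, the glucose transporter GLUT3, did not exceed 0.0363 FPKM in any library.

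Of the 3 lactate and pyruvate genes tested, limma called 0, with 0 at an unadjusted p under 0.05 at 1 µM, where the ordinary linear model called LDHA. LDHA, which makes lactate from pyruvate, averaged 117 ± 30.5 FPKM in the control and 140 ± 33.9 FPKM at 1 µM (SD, n = 5 each), with a log2 fold change of 0.26. SLC16A1, the monocarboxylate transporter MCT1, was at 0.10 and PDK2, a kinase that shuts down pyruvate dehydrogenase, at -0.47. The low members were LDHB, SLC16A3, the lactate exporter MCT4, and PDK1. They averaged 0.363, 1.18 and 1.97 FPKM in the control and 0.376, 1.46 and 1.60 FPKM at 1 µM.

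**Figure D2:**
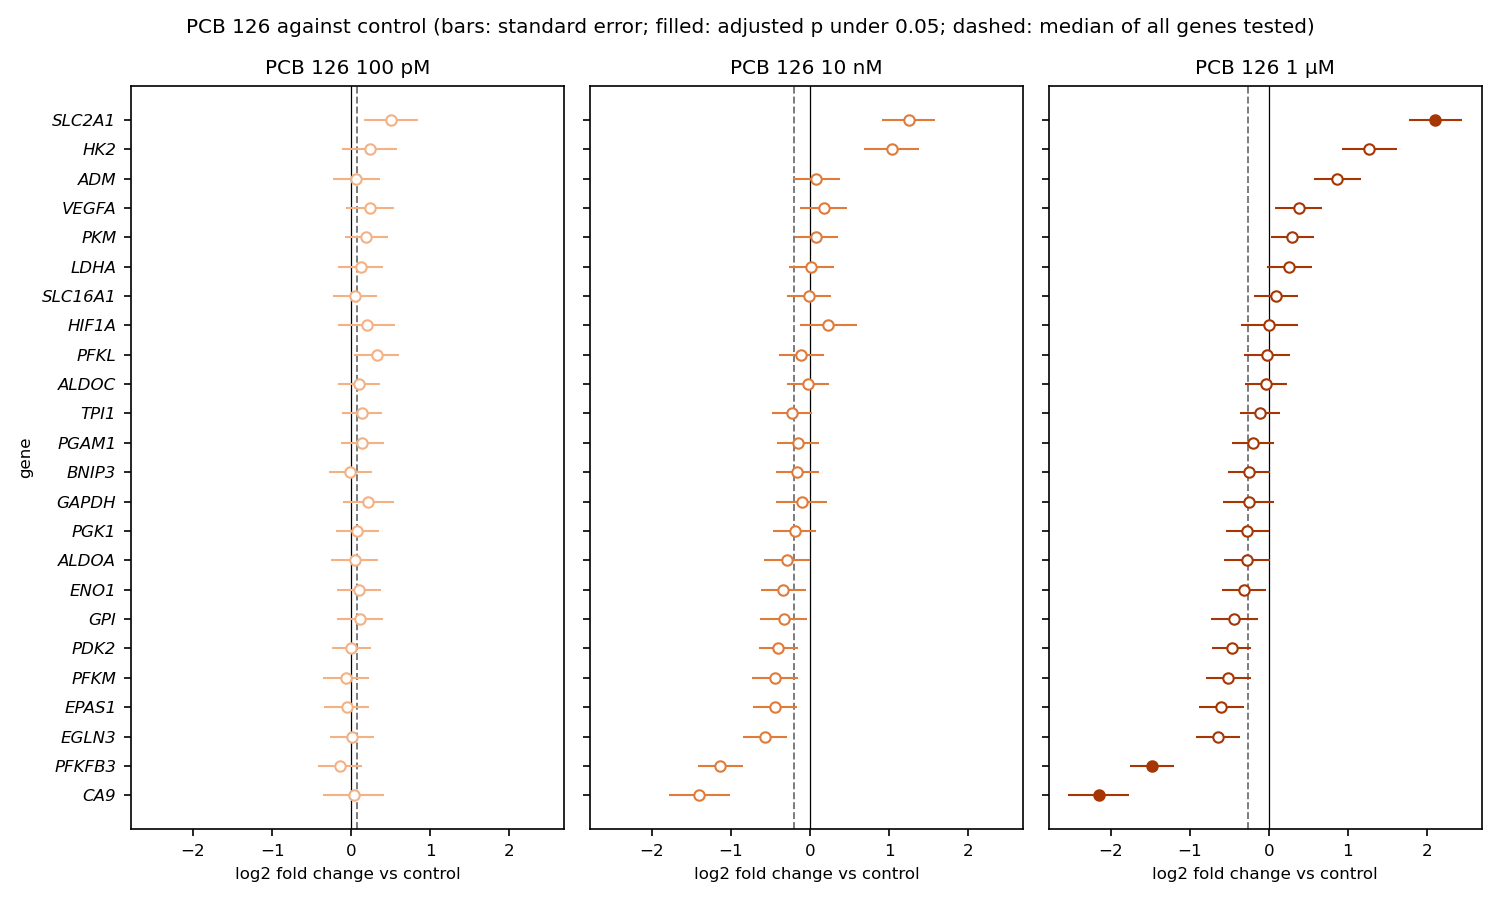
Log2 fold change against control (horizontal axes, with standard error) of the 24 tested genes at 3 PCB 126 doses, where filled points have an adjusted p under 0.05 and dashed lines mark the median of all genes tested. Filled points are SLC2A1 (2.11), PFKFB3 (-1.48) and CA9 (-2.15) at 1 µM, and the enzymes of lower glycolysis lie between -0.32 (ENO1) and 0.30 (PKM), on either side of the dashed line (-0.26).

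At 10 nM none of the 24 genes was called by limma in the main test, where 0.205% of all genes were. Of the 24, 4 had an unadjusted p under 0.05, against 473 of all 9755 genes. The ordinary linear model called 2, PFKFB3 and SLC2A1, and its share over all genes at this dose is not given here. The values of the 4 genes with an unadjusted p under 0.05, SLC2A1, HK2, PFKFB3 and CA9, had the sign they had at 1 µM. Leaving out 10 nM replicate 3 gave a call for SLC2A1, and leaving out replicate 4 gave calls for CA9 and PFKFB3. At 100 pM none of the 24 was called by either test, and none had an unadjusted p under 0.05 under limma, against 116 of all 9755 genes, of which 0% were called. SLC2A1 at 100 pM had a log2 fold change of 0.50 (SE 0.34) and PFKFB3 of -0.14 (SE 0.28). Counting genes whose 5 treated values did not overlap the 5 controls gave 3 of the 24 at 1 µM (2.35% of all genes), 1 at 10 nM and 0 at 100 pM (0.164% of all genes). SLC2A1 and PFKFB3, whose changes were known beforehand, are among the 3 at 1 µM.

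The ratio of SLC2A1 to PFKFB3 within a library does not depend on how that library was scaled. It sets a gene known to rise over a gene known to fall, so a higher ratio follows in part from that choice. It was chosen after the values were seen and is given without a test or a share over other gene pairs. Neither gene was called by limma at 10 nM in the main test, although each passed in some alternative fits. In the controls it was 0.400, 0.352, 0.482, 0.313 and 0.220. At 1 µM it was 3.93, 4.91, 5.85, 4.78 and 5.21, replicates 1 and 5, which are among the 9 libraries, included. At 10 nM it was 3.19, 2.31, 0.927, 1.02 and 4.81, so that all 5 libraries lay above the controls, by varying amounts. At 100 pM it was 0.765, 0.530, 0.407, 0.326 and 1.03, with 3 libraries above the highest control. Over the 20 glyphosate and Roundup libraries it ranged from 0.251 to 0.576. The ratio of SLC2A1 to CA9 was 0.206 to 0.725 in the controls, 0.802 to 15.1 at 10 nM and 6.56 to 11.3 at 1 µM.

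**Figure D3:**
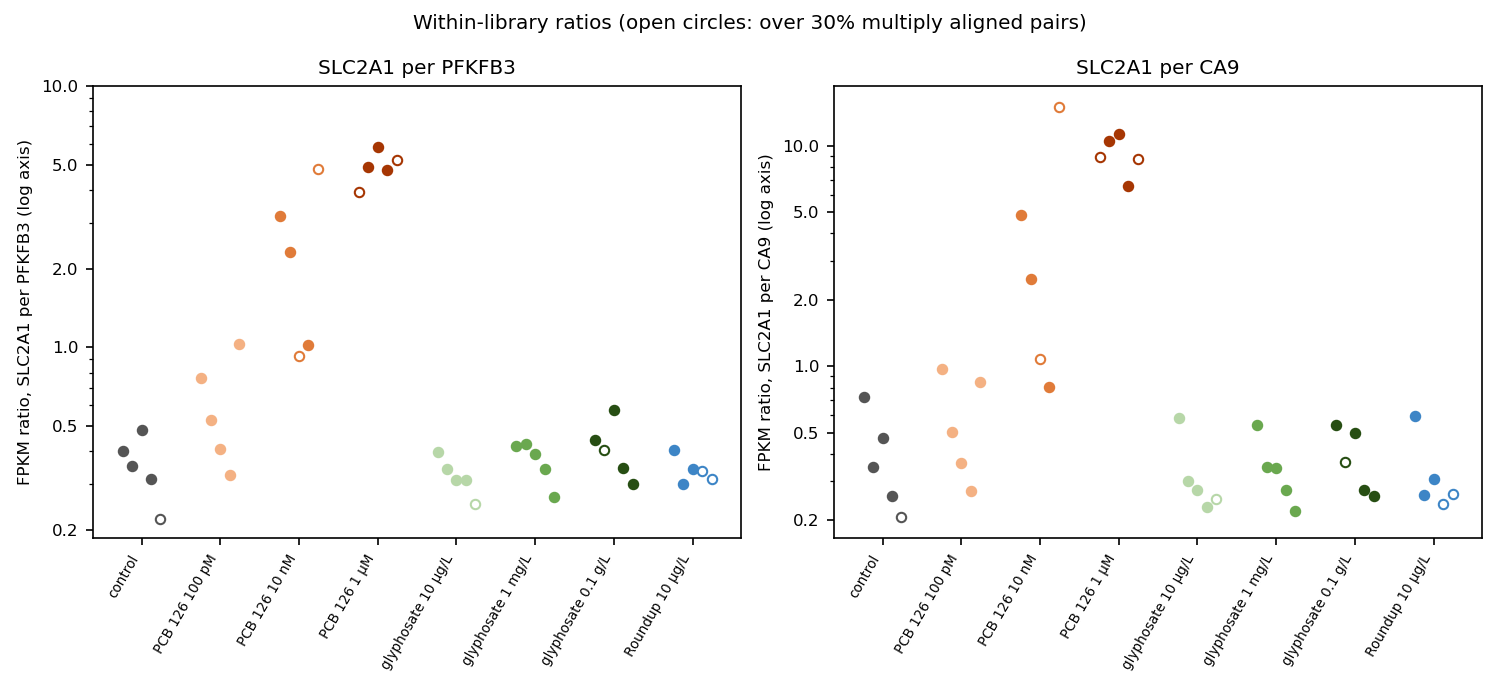
Ratio of SLC2A1 to PFKFB3 (left) and to CA9 (right) in FPKM, on log axes, with 1 point per library and open circles for the 9 libraries with over 30% multiply aligned pairs. The ratio to PFKFB3 runs from 0.220 to 0.482 in the controls, from 0.927 to 4.81 at PCB 126 10 nM and from 3.93 to 5.85 at 1 µM, while the herbicide libraries stay between 0.251 and 0.576.

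Glyphosate and Roundup gave no call among the 23 genes tested in their libraries, HK2 being too low there to be tested. In the comparisons of each glyphosate dose and of Roundup with the control, of Roundup with glyphosate 10 µg/L, and across these groups, limma called 0 of 9533 genes (0%). None of the 23 had an unadjusted p under 0.05 in any of them, against 84 to 165 of all genes, and the ordinary linear model also called 0. SLC2A1 had log2 fold changes of -0.17, 0.13 and 0.06 at the rising glyphosate doses and -0.32 with Roundup. PFKFB3 was at -0.08, 0.07, -0.15 and -0.32, and CA9 at 0.05, 0.28, 0.05 and -0.13. With Roundup all 23 values were negative, with a median of -0.25. Of all 9533 genes 8197 were negative, with a median of -0.18. With glyphosate 1 mg/L 21 of 23 were positive, with a median of 0.13. Of all 9533 genes 8001 were positive, with a median of 0.14. Roundup replicates 4 and 5 are among the 9 libraries, and no glyphosate 1 mg/L library is. Array weights, which let limma count libraries unequally, called 17 of the 23 with Roundup, and their estimation gave convergence warnings.

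**Figure D4:**
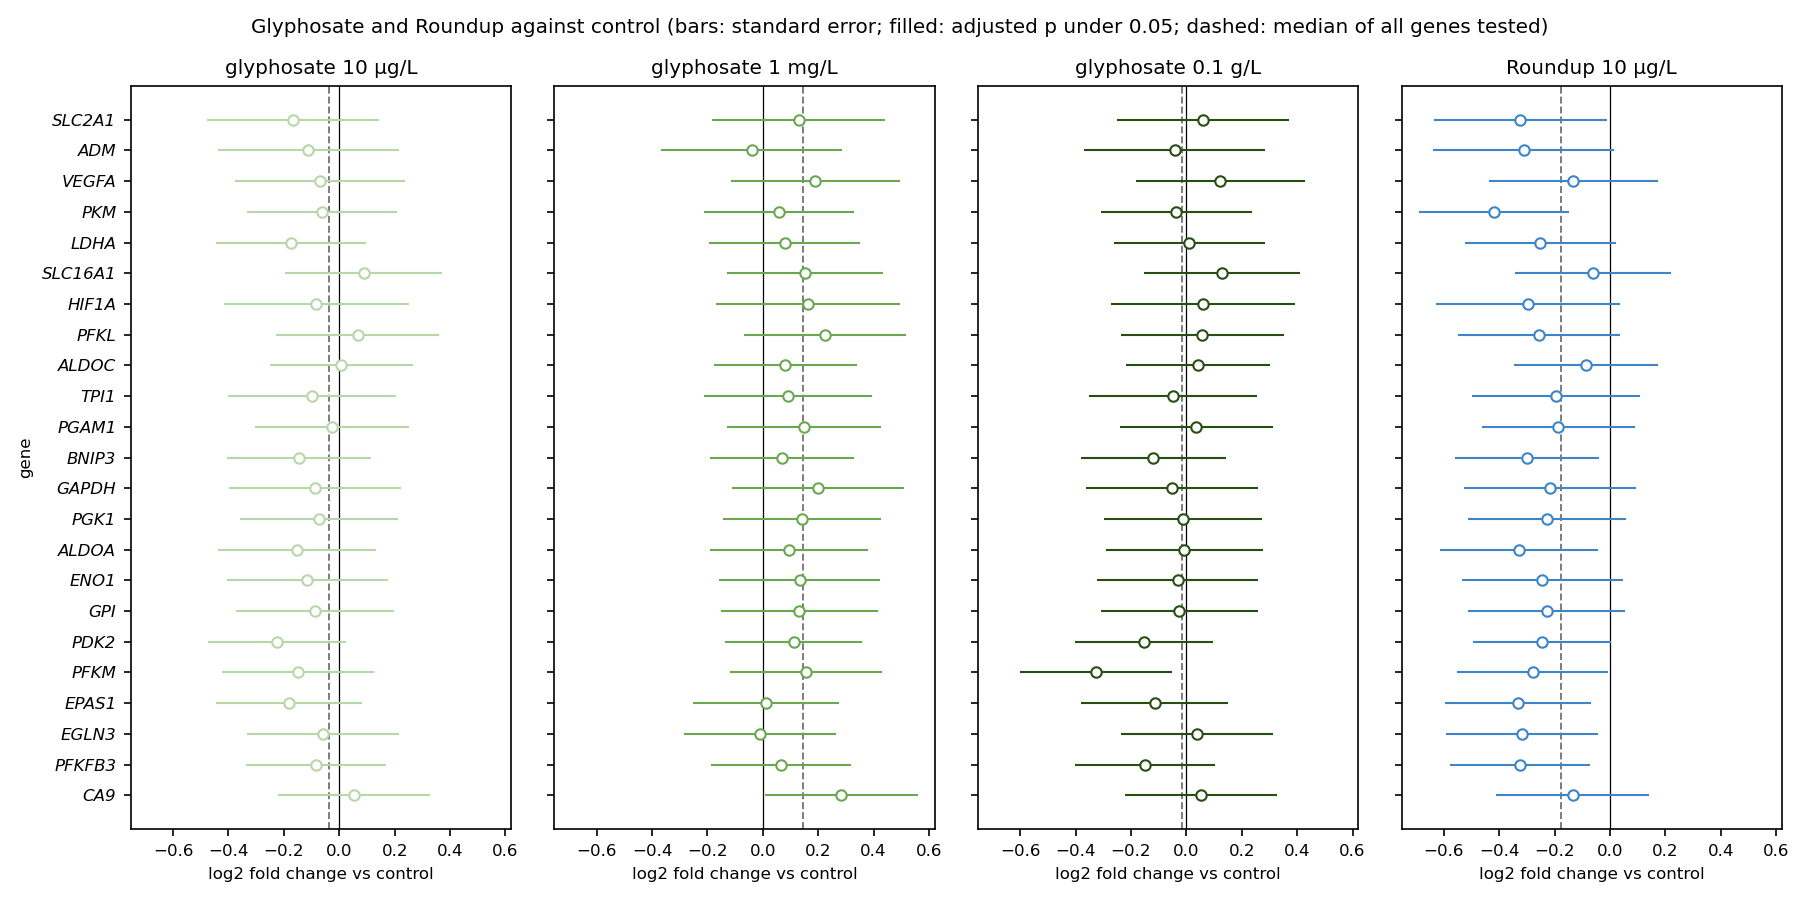
Log2 fold change against control (horizontal axes, with standard error) of 23 genes in the 3 glyphosate groups and the Roundup group, with a dashed line at the median of all genes tested. No point is filled, since no adjusted p was under 0.05, and the points lie around the dashed lines, which are at -0.04, 0.14, -0.01 and -0.18.

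Set against the 20 herbicide libraries, which are not controls but share neither libraries nor chemical with the PCB 126 groups, the 1 µM libraries had 4 of 23 genes called, where 9.37% of all 9732 genes were. HK2 is left out of this count, because it passed the filter on low values over all 40 libraries only through the 1 µM group and so had to differ. SLC2A1 and ADM were higher (1.72% of all genes), and PFKFB3 and CA9 lower (7.66%). The log2 fold changes were 2.18 (SE 0.25) for SLC2A1 and 0.99 (SE 0.25) for ADM. They were -1.35 (SE 0.21) for PFKFB3 and -2.21 (SE 0.27) for CA9. The adjusted p was 0.00728 for ADM. The 1 µM libraries are the same as in the comparison with the control. SLC2A1 and PFKFB3, whose changes were known beforehand, are among the 4 called.

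Further HIF genes were listed with earlier results known. None of 10 partners and oxygen sensors of HIF was called by limma, and none had an unadjusted p under 0.05. ARNT, the shared partner, was at -0.20, VHL, which targets HIF alpha for destruction, at -0.29 and AHR at -0.71, 3 genes named after their values were seen. Of 25 tested further HIF-1 targets, 3 were called (12%, against 1.87% of all genes), and 9 had an unadjusted p under 0.05 (36.0%, against 13.6% of all genes). Because the list was made with earlier results known, these shares do not test HIF-1 targets as a set. STC2, a secreted glycoprotein, rose from 0.824 to 17.4 FPKM on average, and IGFBP1, which binds insulin-like growth factors, from 27.5 to 136 FPKM. BHLHE41, a transcriptional repressor, fell from 2.68 to 0.876 FPKM. Their log2 fold changes were 3.29, 2.15 and -0.96. STC2 was also called at 10 nM, at 2.25 with an adjusted p of 0.00127.

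AhR targets, also listed with earlier results known, were called in 5 of 6 tested genes at 1 µM, all higher (83.3%, against 1.87% of all genes). Not all 7 listed rose alike. NQO1 averaged 2.58 FPKM in the control and 2.18 FPKM at 1 µM, and AHRR 1.73 and 2.39 FPKM. CYP1A1, the classical AhR-induced monooxygenase, ranged from 0 to 7.69 FPKM in the control and from 85.2 to 389 FPKM at 1 µM. CYP1A2, TIPARP and ALDH3A1 had log2 fold changes of 6.16, 3.21 and 1.93. Of the 10 hepatocyte markers, all tested, 2 were called, both lower (20.0%, against 1.87% of all genes). Over all 9755 genes tested 7726 values were negative, and 8 of the 10 markers had negative values. Their levels summed to 14621 to 21311 FPKM in the control and to 5719 to 14537 FPKM at 1 µM, a sum of which ALB alone held 11206 FPKM on average in the control. TTR (-1.62) and FGB (-1.37) were the called markers, and HNF4A (0.41) and CYP3A4 (0.39) had positive values. The 8 biliary and progenitor markers summed to 279 to 535 FPKM in the control and 165 to 285 FPKM at 1 µM, with none of 4 tested called by limma, 3 of them with an unadjusted p under 0.05. KRT19 alone averaged 303 FPKM in the control and 164 FPKM at 1 µM, so it made up most of that sum. EPCAM was at 0 in every 1 µM library, and its control median was also 0. The 8 mesenchymal markers summed to 41.1 to 91.9 FPKM and 50.8 to 190 FPKM, a sum of which LUM alone averaged 50.2 and 115 FPKM. COL3A1 (-3.07) was the 1 called of 6 tested (16.7%, against 1.87% of all genes), and 3 values were positive and 3 negative. LUM (1.03), DCN (1.02) and COL1A1 (0.64) had the positive values, and COL1A2 had a median of 0 in both groups. The part of these shifts in the changes of SLC2A1, PFKFB3 and CA9 was not tested.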

How the data were processed

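RNA sequencing data of 40 HepaRG libraries were analysed from the transcript-level FPKM tables deposited by the authors, one for PCB 126 (20 libraries) and one for glyphosate and Roundup (25), with the same 5 controls in both. According to the study's methods and processing notes, the authors depleted rRNA, made directional libraries, aligned reads with HISAT2 to GRCh38, and estimated FPKM with StringTie and Ballgown. Tool versions are not given in the sources used here. StringTie distributes reads among transcripts by estimation, so gene sums are firmer than single transcripts. The columns treated as score were deposited as FPKM too, and hold 4 (PCB 126) and 6 (glyphosate) values below 0, which were set to 0. Depth cannot be read from FPKM, and no counting interval is given.

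FPKM was summed per gene name over 234960 transcripts, 35782 of them without a name. Genes with a variance of FPKM over 1 were tested in limma 3.58.1 (R 4.3.3) on log2(FPKM + 1), with Benjamini-Hochberg adjustment over all genes tested. PCB 126 groups were fitted in the 20 libraries, herbicide groups in the 25, and 1 µM against herbicide libraries in all 40. The test was checked on simulated data. Tables and plots were made with Python 3.11.15.

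The members and lists were chosen with earlier results of these data known. Values of every library are given for SLC2A1, PFKFB3, HIF1A, EPAS1 and at most 10 members called against the control, filled to 8 genes by the smallest unadjusted p at 1 µM. Every other member is given by its mean or range. Promoters were to be taken from RefSeq for SLC2A1, PFKFB3 and 2 further members with the smallest adjusted p. For PFKFB3 the hg38 sequence before its main start was used, a choice made after its transcripts were seen. Replicate numbers follow accession order. Each coincides with a run of consecutive library numbers, whose meaning the labels do not give, and since not every pair of a run correlated above 0.1, the runs were not taken as pairing. Alternatives included other pseudocounts, filters, scalings and models, and leaving out libraries. A further list of genes of glucose and pyruvate metabolism is not reported here.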

Additional observations from a re-analysis of the deposited data

Results flagged for a closer look

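Among the 8 genes given library by library, each of the 64 sets of 5 libraries was examined for a highest or lowest value set far apart from the other 4, and 3 were found; chance alone flags about 1 set in 20. PFKFB3 at PCB 126 1 µM was 5.55 FPKM in replicate 5, below the 8.63 to 9.39 FPKM of the others, and this replicate is one of the 9 libraries with over 30% multiply aligned pairs. HK2 at glyphosate 0.1 g/L was 0.430 FPKM in replicate 2, which is also one of the 9. ADM at glyphosate 1 mg/L was 9.85 FPKM in replicate 1, above the 4.95 to 6.36 FPKM of the others.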

How the results depend on the processing

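The calls of SLC2A1, PFKFB3 and CA9 at 1 µM kept their direction and their side of the threshold under every alternative run, and leaving out 1 library at a time gave 1.85 to 2.25, -1.61 to -1.36 and -2.31 to -2.01. The 3 genes called at 1 µM became 5 with scaling to the 75th percentile, 9 with quantile normalization, 8 with the ordinary linear model, 5 without the 9 libraries and 7 with array weights. The 0 at 10 nM became 2 under those 3 scalings and models, array weights, the replicate block and a fit of all 40 libraries, 1 without the 9 libraries, and 3 with locus sums, chosen after seeing the data. Leaving out single libraries gave 0 to 2 there. The shares over all genes at 10 nM under these alternatives are not given here. Across the PCB 126 groups the count was 5 (75th percentile), 9 (quantile) and 5 (array weights). Against the herbicide libraries, with HK2 counted, 5 genes became 12, 11, 9 (ordinary model), 8 (without the 9 libraries) and 8 (array weights), and 4 to 6 without single libraries. Array weights, with convergence warnings, called 17 with Roundup, 13 between Roundup and glyphosate and 19 across the herbicide groups, where the main count was 0. The counts over all genes in these 3 comparisons are not given here, so the 17, 13 and 19 are not read as a result about the members. Genes called at 1 µM numbered 182, and 592 (75th percentile), 1125 (quantile), 830 (ordinary model), 526 (without the 9 libraries), 946 (array weights), 357 (replicate block), 298 (all 40 libraries), 397 (locus sums) and 117 (most abundant transcript).

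Signs that turned at 1 µM belonged to genes that were not called in the main test. With quantile normalization ALDOA was 0.0274, ALDOC 0.20, ENO1 0.0045, GAPDH 0.0667, PFKL 0.17 and TPI1 0.0772. With the ordinary model ALDOA was 0.0190, ALDOC 0.21, BNIP3 0.0234, GAPDH 0.12, PFKL 0.27, PGAM1 0.0894, PGK1 0.0347 and TPI1 0.0846. With the 75th percentile ALDOC was 0.11, PFKL 0.14 and TPI1 0.0572. Without the 9 libraries ALDOC was 0.0364, GAPDH 0.0233 and PFKL 0.14, and with array weights 0.0128, 0.0058 and 0.0707. With the most abundant transcript ALDOA was 0.79, HIF1A -0.0279, PFKL 0.000565 and VEGFA -0.37. Leaving out single libraries gave -0.19 to 0.0791 for ALDOC, -0.46 to 0.0480 for GAPDH, -0.22 to 0.38 for HIF1A, -0.20 to 0.11 for PFKL and -0.0343 to 0.25 for SLC16A1. The cause of these changes was not tested.

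The replicate block was the run of consecutive library numbers. Libraries of 1 run deviated together weakly and not in every pair. The median r was 0.0634 (-0.0557 to 0.169) in the PCB 126 libraries, against -0.0182 between runs, with 9 of 20 closest to their own run. It was 0.0688 (-0.170 to 0.360) in the herbicide libraries, against -0.0188, with 18 of 25 closest. Each run held 1 library of each of the 8 groups, but the labels do not say what a run stands for. Replicates 5 of the control, PCB 126 10 nM and 1 µM, glyphosate 10 µg/L and Roundup share 1 run and are all among the 9 libraries. With the block 4 genes were called at 1 µM, HK2 being added at an adjusted p of 0.0391, and 2 at 10 nM, CA9 (adjusted p of 0.0297) and PFKFB3 (0.00880). HK2 also passed at 1 µM without PCB 126 10 nM replicate 3, at an adjusted p of 0.0450.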
